A study of Mus musculus with 114 samples.

Results

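GABA-A receptors are pentameric chloride channels that open when they bind the inhibitory transmitter GABA, and each of their subunits has a gene of its own. Transcripts of 7 subunit genes are described here: Gabra2, Gabra3, Gabra4 and Gabra5, which encode alpha subunits, Gabrb1 and Gabrb2, which encode beta subunits, and Gabrd, which encodes the delta subunit. They were chosen by name, by matching the Ensembl identifiers of the count table to gene symbols. All 7 were among the 13101 genes of the table, and all 7 were among the 13053 genes that passed the filter on low counts. The subunit genes Gabrg1 and Gabrg3 are given beside them.

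Most cortical GABA-A receptors join alpha and beta subunits to a gamma or a delta subunit. The alpha subunit sets much of a receptor's kinetics, its place on the cell and its sensitivity to benzodiazepines, while the beta subunit is needed for assembly and contributes to the GABA binding site. Receptors at synapses usually hold a gamma subunit. Receptors with the delta subunit, often joined to alpha4, and many receptors with alpha5 lie outside synapses and carry a tonic current.

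The RNA was pulled down with ribosomes that carry a haemagglutinin tag (the RiboTag method) from prefrontal cortex, taken from female and male mice whose genotype is labelled Ribo-tag. Each library belongs to 1 of 6 zeitgeber times (ZT, in hours from lights on), from ZT2 to ZT22 in steps of 4 h. The title opens with PV in 55 libraries, 28 of females and 27 of males, and with C in 58, with 29 of each sex. The strain, the driver of the tag, the age of the mice and whether each library is a separate animal are not named in the sources used here, so p-values measure the spread between libraries, which may be technical. No treatment is named, and every library carries the same genotype label.

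Title prefix and cell type entry contradict each other: every C-titled library is entered as parvalbumin interneurons and every PV-titled library as pyramidal neurons. Libraries are therefore called PV-titled and C-titled after their titles. In PV-titled libraries all 8 PV interneuron markers and all 6 markers of GABAergic neurons were higher (edgeR, adjusted p under 0.05). All 8 pyramidal markers were lower by the same test. Over all genes, 44.3% were called higher and 43.2% lower. The GABAergic markers summed to 627 to 1964 CPM (counts scaled to one common library total, after TMM scaling) in PV-titled libraries and to 40.5 to 263.7 in C-titled libraries. The measured markers thus place the PV-titled libraries on the interneuron side, against the cell type entry. Pyramidal markers stayed well above 0 there, at a median sum of 2081 CPM against 5091 in C-titled libraries. Markers of other cells were higher in PV-titled libraries too, with median sums of 854 against 204.2 CPM for astrocytes, 445 against 216.04 for oligodendrocytes, 155.5 against 42.6 for microglia and 148.3 against 26.1 for endothelial and mural cells. The ranges of these sums overlapped between prefixes for oligodendrocytes and not for the other 3, and microglial sums, for example, ran from 128 to 230.8 against 27.9 to 72.5 CPM. No marker of the table was at 0 in all libraries of a prefix, and the part of these cells in the subunit results was not tested.

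Counts assigned to genes came to 19.1 to 39.5 M per PV-titled library and 24.6 to 44.1 M per C-titled library. The lowest count of any of the 7 genes in any library was 122, for Gabrb2. A group of 8 libraries stood apart from the others of their prefix by a lower median correlation across genes, a choice made after seeing the data. They were 5 C-titled libraries at ZT2 and ZT6, with median correlations of 0.883 to 0.943 against a typical 0.979, and 3 PV-titled ones at ZT10, ZT14 and ZT22, at 0.819 to 0.862 against 0.941. Library numbers in the titles fall into a lower and a higher range, which entered every fit as a term; what the ranges mark is not given in the sources used here.

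The 7 genes lie on 5 chromosomes of the build GRCm38. Gabra2 (ENSMUSG00000000560, chr5:70957597-71095849), Gabra4 (ENSMUSG00000029211, chr5:71569749-71658308) and Gabrb1 (ENSMUSG00000029212, chr5:71658113-72149037) share chromosome 5. Gabra4 and Gabrb1 stand head to head on opposite strands, and their spans overlap by 0.196 kb, of which 46 bases are exonic in both. Gabra5 (ENSMUSG00000055078) lies at chr7:57407672-57510059 on the minus strand, and 4.98% of its 2974 exonic bases overlap the antisense gene Gm9962. Whether the counting used strand is not given in the sources used here, so reads from these shared bases cannot be assigned to 1 gene. Gabra3 (ENSMUSG00000031343) lies at chrX:72432681-72656848, Gabrb2 (ENSMUSG00000007653) at chr11:42419757-42629028 and Gabrd (ENSMUSG00000029054) at chr4:155384980-155398112.

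The promoters of the 3 members with the largest difference between prefixes are shown, since these transcripts are lower together in PV-titled libraries. Each is the 250 bases before an annotated start, read 5′ to 3′ on the gene's strand from RefSeq on GRCm38.p6, with CG pairs in capitals.
Gabra2, chr5:71095850-71096099, minus strand: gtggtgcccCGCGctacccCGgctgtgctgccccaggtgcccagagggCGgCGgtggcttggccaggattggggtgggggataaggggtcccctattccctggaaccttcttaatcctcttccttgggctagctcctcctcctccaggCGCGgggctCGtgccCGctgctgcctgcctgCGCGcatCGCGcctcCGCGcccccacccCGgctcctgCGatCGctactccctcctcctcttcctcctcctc
Gabra3, chrX:72656920-72657169, minus strand: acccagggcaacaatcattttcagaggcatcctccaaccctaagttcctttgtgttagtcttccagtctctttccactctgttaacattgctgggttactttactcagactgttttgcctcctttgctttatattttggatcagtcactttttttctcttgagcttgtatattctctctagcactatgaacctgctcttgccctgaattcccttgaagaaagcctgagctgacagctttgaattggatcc
Gabra5, chr7:57510060-57510309, minus strand: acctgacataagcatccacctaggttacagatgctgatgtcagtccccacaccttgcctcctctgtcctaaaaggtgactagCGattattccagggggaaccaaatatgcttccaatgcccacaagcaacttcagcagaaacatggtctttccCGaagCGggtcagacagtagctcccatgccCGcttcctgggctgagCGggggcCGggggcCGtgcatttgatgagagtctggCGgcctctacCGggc
Gabra3 has another entry, not shown, at chrX:72656808-72657057, with 0 CG pairs and a GC content of 39.2%. The windows shown have little letter composition in common. The Gabra2 window holds 18 CG pairs at a GC content of 70.0%, the Gabra5 window 9 at 56.4% and the Gabra3 window 0 at 42.4%, beside medians of 6 pairs and 52.4% over all 32851 promoters of that length, of which 7.87% hold no CG pair. The E-box CACGTG, the D-box in the forms TTACGTAA and TTATGTAA, and the CRE TGACGTCA, letters bound by clock-related and cAMP-responsive factors, were searched on both strands, and none of these motifs contains another. They occur in 6.02%, 0.931% and 1.55% of all promoters. No match lay in the 10 entries for the 6 of 7 members that the table of promoters holds, which says only that these letters are not in these windows.

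Of the 7 subunit genes, 6 had a lower level in the PV-titled than in the C-titled libraries and none a higher one. The differences ran from 1.20-fold for Gabrb1 to 2.28-fold for Gabra3, and Gabrd alone did not pass the test. Nearly every gene of the table passed this test: 87.5% of 13053 genes differed between prefixes, 43.2% lower and 44.3% higher in PV-titled libraries. Of the genes called, 50.7% were higher, and 61.7% when counts were scaled by the library total alone. The median difference over the 7 genes was -0.80 on the log2 scale, beside 0.01 over all genes. Against a bar of at least 2-fold (glmTreat), 1 of the 7 was called lower, Gabra3, beside 4.54% of all genes. In either direction 22.5% of all genes were called. This bar was set on the main fit alone, and without TMM scaling the Gabra3 difference was -0.99 (log2), under 2-fold. In such pooled RNA, fewer cells with a transcript and less of it per cell cannot be told apart. The 8 pyramidal markers, all called lower in PV-titled libraries, had a median difference of -1.15 (log2). What RNA of pyramidal cells adds to the subunit levels in PV-titled libraries was not tested.

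**Figure D1:**
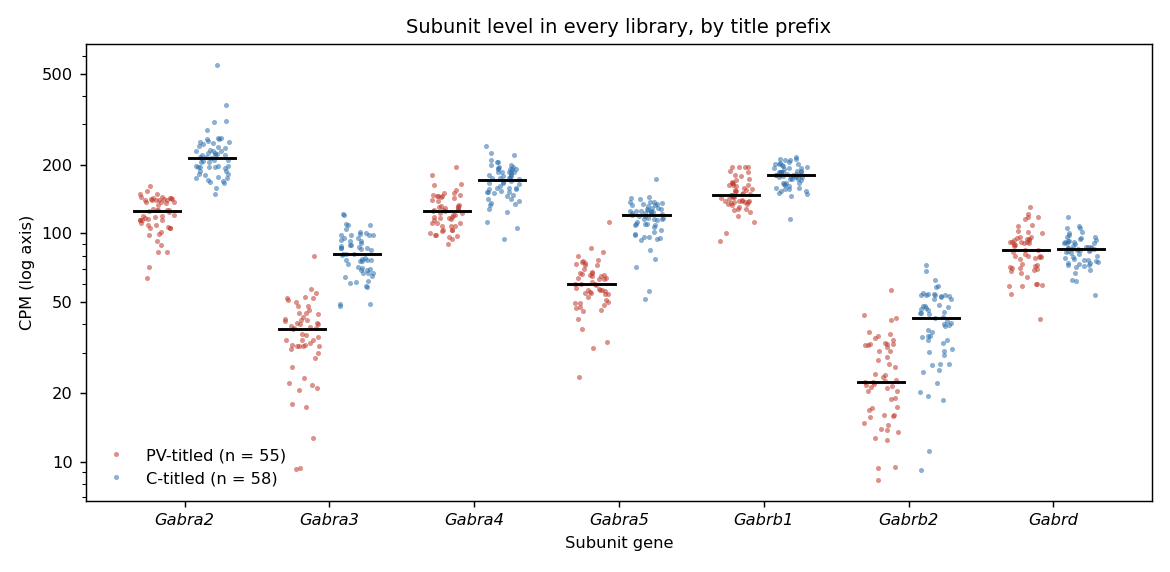
Level of each of the 7 subunit genes in every library (CPM after TMM scaling, log axis), with PV-titled libraries in red and C-titled libraries in blue; each point is 1 library and each bar the median. The clouds are most separate for Gabra2 and Gabra3, and the 2 medians of Gabrd, 84.5 and 85.4 CPM, are nearly level.

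Gabra3, the alpha3 gene, showed the largest difference of the 7. Its level ran from 9.29 through a median of 38.3 to 79.4 CPM in PV-titled libraries, and from 48.2 through 81.3 to 122 CPM in C-titled libraries. The groups overlapped in part: 47 of 55 PV-titled libraries lay below the lowest C-titled one. The difference was -1.19 ± 0.08 (log2, SE; adjusted p = 3.6e-27), and 0.0107 was the adjusted p against the 2-fold bar.

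Gabra2, whose product carries much of the benzodiazepine effect on anxiety, was the most cleanly separated. PV-titled libraries held 63.6 to 160.96 CPM with a median of 125, and C-titled libraries held 148.2 to 547 with a median of 214.2. Of the PV-titled libraries 51 lay below every C-titled one, and 56 of 58 C-titled libraries lay above every PV-titled one. The difference was -0.86 ± 0.05 (log2, SE; adjusted p = 4.43e-31), or 1.82-fold.

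Gabra5, whose product sits largely outside synapses, was 1.94-fold lower in PV-titled libraries. Its level was 23.5 to 112 CPM there, with a median of 59.8, against 51.6 to 172.4 CPM with a median of 120. All 55 PV-titled libraries lay below the C-titled median, while 14 lay below the lowest C-titled library. The difference was -0.96 ± 0.06 (log2, SE; adjusted p = 5.88e-31).

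Gabra4, the usual partner of delta in tonic receptors of the forebrain, differed least among the alpha members. It ran from 89.7 through 125 to 194.3 CPM in the PV-titled set and from 94.6 through 171.3 to 242.3 CPM in the C-titled set. The groups overlapped over most of their range, with 1 PV-titled library below the lowest C-titled one. The difference was -0.42 ± 0.05 (log2, SE; adjusted p = 3.92e-15). It was larger among libraries of the lower number range, at -0.58, than among those of the higher range, at -0.26, with adjusted p of 2.83e-12 and 6.55e-05.

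Of the beta genes, Gabrb2, the beta2 gene, was 1.74-fold lower in PV-titled libraries. It was the least abundant of the 7 and the most variable, with 8.33 to 56.6 CPM and a median of 22.4 in PV-titled libraries, and 9.22 to 72.4 CPM and a median of 42.7 in C-titled libraries. Its coefficient of variation was 40.7% and 33.0%. The difference was -0.80 ± 0.10 (log2, SE; adjusted p = 3.75e-12), and within the number ranges it was -1.08 and -0.53.

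Gabrb1, the beta1 gene, was the steadiest, with coefficients of variation of 15.3% and 11.0%. It ran from 92.4 through 146.7 to 196.01 CPM in the PV-titled set and from 116 through 180 to 215.4 CPM in the C-titled set. The groups overlapped widely, and the difference of -0.26 ± 0.04 (log2, SE; adjusted p = 5.31e-10) was the smallest of the 6 that passed. Without TMM scaling it was -0.06 (adjusted p = 0.158) and did not pass. Relative to the median of all genes it was at -0.27 under both scalings. A change of scaling moves all genes nearly alike, so this equality is no test of the difference.

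Gabrd, the delta gene, stood at the same level under both prefixes. It ran from 42.2 through 84.5 to 130 CPM in the PV-titled set and from 54.0 through 85.4 to 118 CPM in the C-titled set. The PV-titled libraries spread beyond the C-titled ones on both sides, 1 below the lowest and 4 above the highest. The difference was -0.01 ± 0.05 (log2, SE; adjusted p = 0.869), with a 95% interval from -0.10 to 0.09. Scaling by the library total alone moves the median of all genes by 0.20, from 0.01 to 0.21, and Gabrd with it, to 0.19 (adjusted p = 4.65e-04), so that its direction turns. Relative to that median Gabrd was at -0.02 under both scalings, and Gabra3 at -1.20, an equality that the shared shift sets in advance.

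The genes of the gamma1 and gamma3 subunits went the other way. Gabrg1 was higher by 0.41 ± 0.08 (SE; adjusted p = 5.23e-06) and Gabrg3 by 0.18 ± 0.08 (SE; adjusted p = 0.0253). Both are genes of low level here, with mean levels of 12.7 and 30.8 CPM in PV-titled libraries. Their difference between prefixes is given for the main fit alone. For Gabrg3 the PV-titled mean was 0.876 of the C-titled one at ZT2 and 1.08 to 1.40 of it at the other times.

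**Figure D2:**
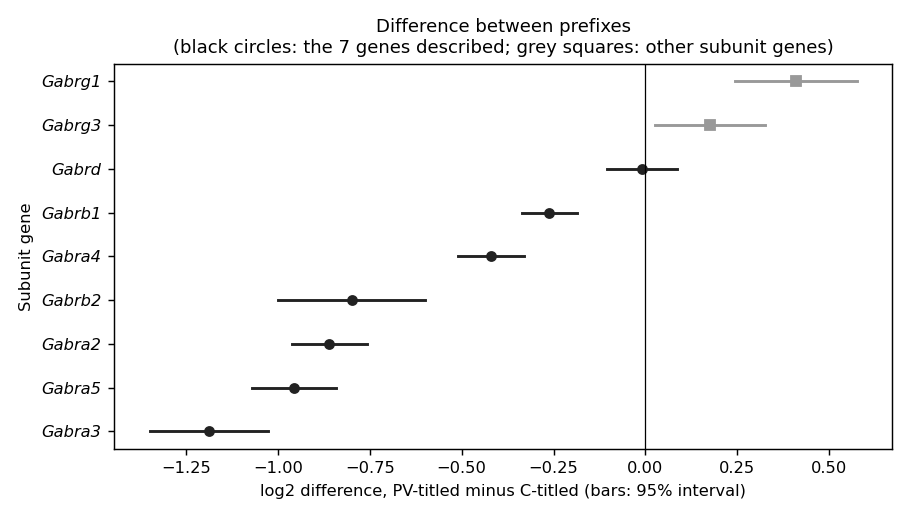
Difference between prefixes (log2, PV-titled minus C-titled, with 95% intervals) for the 7 genes described (black circles) and for Gabrg1 and Gabrg3 (grey squares). The interval of Gabrd, from -0.10 to 0.09, spans 0, and those of the other 6 described genes lie below 0.

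Within each number range the same 6 genes were called lower, and Gabrd was not called. Gabra2 differed by -0.71 in the lower range and -1.01 in the higher one, Gabra3 by -1.38 and -1.01, Gabra5 by -0.89 and -1.0, and Gabrb1 by -0.26 and -0.27 (log2). Gabrd was at -0.04 and 0.03. In C-titled libraries the Gabra2 level itself was higher in the higher range, at 253.8 ± 67.9 CPM (SD, n = 29) against 193.1 ± 23.6 (SD, n = 29). Without the 8 libraries that stood apart, 6 of 7 genes were again lower, with differences from -0.28 for Gabrb1 to -1.23 for Gabra3, and Gabrd was at -0.05 (adjusted p = 0.284).

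To compare genes with each other, levels were divided by the length of their merged exons in kb. In PV-titled libraries Gabrd came first at 29.4 ± 6.40 CPM per kb (SD, n = 55), followed by Gabra4 at 20.7 ± 3.60, Gabra5 at 20.2 ± 4.88 and Gabra2 at 16 ± 2.79. Gabrb1 followed at 10.8 ± 1.65, Gabra3 at 9.35 ± 3.24 and Gabrb2 at 3.85 ± 1.57. The gaps between Gabra4 and Gabra5, between Gabra5 and Gabra2, and between Gabrb1 and Gabra3 were smaller than the larger SD of the pair.

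In C-titled libraries Gabra5 came first at 39.1 ± 7.16 CPM per kb (SD, n = 58). Gabrd at 29.5 ± 4.16, Gabra2 at 29.2 ± 7.71 and Gabra4 at 27.8 ± 4.81 followed within 1 SD of each other, then Gabra3 at 20.98 ± 4.38, Gabrb1 at 13.0 ± 1.43 and Gabrb2 at 6.49 ± 2.14. Dividing by the longest coding transcript instead keeps the order in PV-titled libraries. In C-titled libraries it puts Gabrd first at 44.2, with Gabra5 at 43.5, Gabra4 at 41.1 and Gabra2 at 38.2 CPM per kb, each gap again smaller than the SDs.

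Shares of the summed level per kb show how the mix of subunits differed. Among the 4 alpha genes described, Gabra4 made up 31.3% ± 4.63 (SD, n = 55) in the PV-titled set and 23.7% ± 2.89 (SD, n = 58) in the C-titled set. The share of Gabra3 was 13.96% ± 4.13 against 17.9% ± 3.13, that of Gabra5 30.4% ± 5.98 against 33.3% ± 4.82, and that of Gabra2 24.3% ± 4.52 against 25.1% ± 6.04. Gabra4, which differed least among these genes, thus took a larger share where the others were lower still, and the shares of the other alpha genes differed by less than their larger SD.

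Of the summed level of all 7 genes, Gabrd made up 26.6% ± 5.45 (SD, n = 55) in the PV-titled set, the largest share there, and 17.8% ± 2.49 (SD, n = 58) in the C-titled set. The share of Gabra5 was 18.3% ± 4.09 against 23.5% ± 3.60, the largest share in the C-titled set. Gabrb1 made up 9.87% ± 1.58 against 7.88% ± 1.07, and Gabrb2 3.46% ± 1.3 against 3.87% ± 1.16. Shares of 1 sum are not independent of each other, other subunit genes are not in these sums, and no test was run on them.

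**Figure D3:**
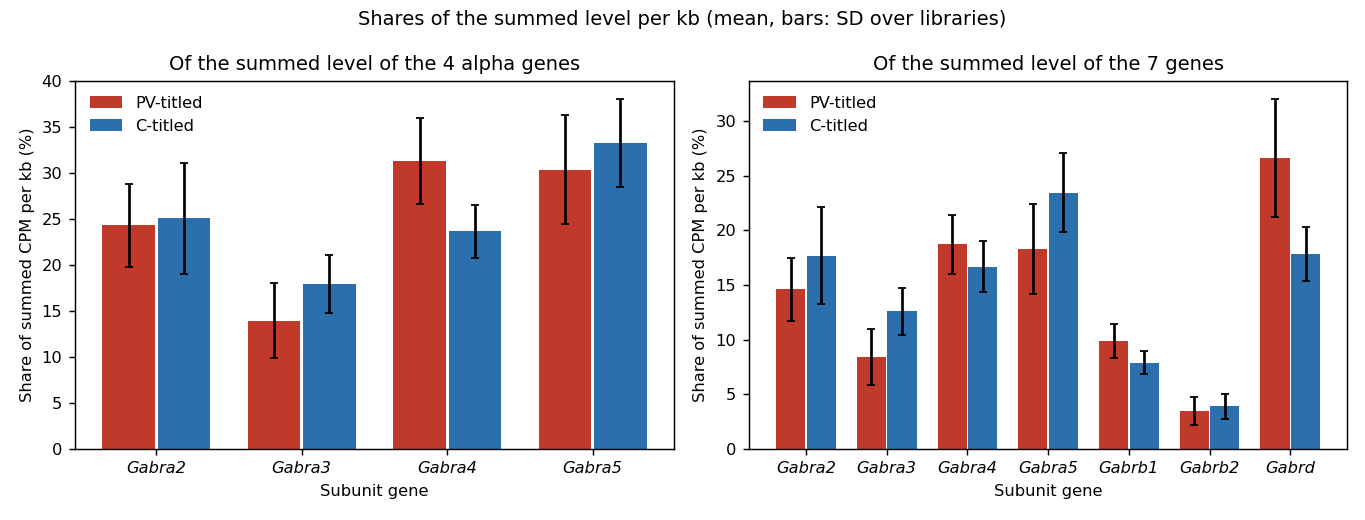
Share of each gene in the summed level per kb (CPM per kb of merged exons, in percent) of the 4 alpha genes and of the 7 genes described, as mean and SD over 55 PV-titled (red) and 58 C-titled (blue) libraries. Gabra4 among the alpha genes and Gabrd among the 7 take larger mean shares in PV-titled libraries, 31.3% and 26.6%, than in C-titled libraries, 23.7% and 17.8%.

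The difference between prefixes held its direction over the day. The mean PV-titled level was below the C-titled one at 6 of 6 times for each of Gabra2, Gabra3, Gabra4, Gabra5, Gabrb1 and Gabrb2. The ratio of the means was narrowest in range for Gabra3, from 0.416 at ZT14 to 0.478 at ZT10, and for Gabra5 it ran from 0.437 at ZT2 to 0.609 at ZT10. For Gabrd the ratio crossed 1, with the PV-titled mean lower at 3 of 6 times, from 0.804 at ZT22 to 1.17 at ZT14.

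**Figure D4:**
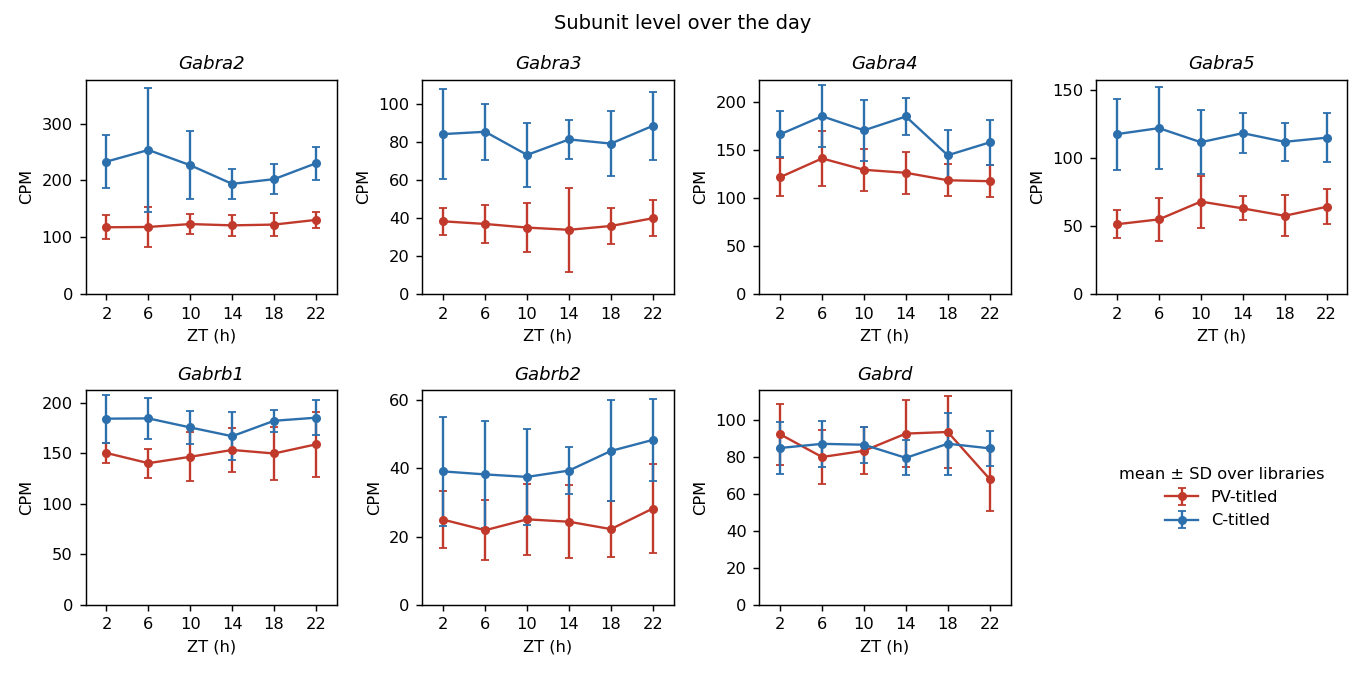
Mean level and SD (CPM after TMM scaling) of the 7 genes at the 6 zeitgeber times, PV-titled libraries in red and C-titled libraries in blue, with 8 to 10 libraries per point. The PV-titled means lie below the C-titled ones at all 6 times for every gene but Gabrd. The curves of Gabrd cross, and its PV-titled mean is lowest at ZT22, at 68.0 CPM.

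In the test of a 24 h rhythm, 0 of the 7 genes were called in PV-titled libraries, beside 3.1% of 13047 genes (edgeR). At an unadjusted p under 0.05 there was 1, Gabra4, and DESeq2 also called 0. In C-titled libraries 1 of 7 was called, Gabra2, beside 27% of 13029 genes, so the 7 genes were called no more often than the table as a whole. The median amplitude, the distance from mean to peak of the fitted curve, was 0.10 in the PV-titled set and 0.09 in the C-titled set over the 7 genes, beside 0.11 and 0.12 over all genes (log2).

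Gabra2 in C-titled libraries had an amplitude of 0.16 ± 0.05 (log2, SE; adjusted p = 0.0179), which is 1.25-fold from trough to peak, and its fitted peak fell at ZT4.05 with an SE of 1.06 h. Its mean level was 232.95 ± 46.0 CPM at ZT2, 253.5 ± 110 at ZT6, 226.6 ± 59.4 at ZT10, 193.8 ± 26.6 at ZT14, 202.1 ± 26.1 at ZT18 and 230 ± 29.1 at ZT22 (SD, n = 9 or 10). The groups of the 6 times overlapped throughout, and the medians ran from 197.5 CPM at ZT18 to 240 CPM at ZT22. The library at 547 CPM and another at 311.3 CPM, both at ZT6, and a library at 308.1 CPM at ZT2 were among those that stood apart.

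The call of Gabra2 did not hold without the 5 C-titled libraries that stood apart, all at ZT2 or ZT6, where the amplitude was 0.10 (adjusted p = 0.0838). The mean at ZT6 was then 210 ± 21.5 CPM (SD over 7 libraries). Nor was Gabra2 called within the lower number range (amplitude 0.10, adjusted p = 0.318) or the higher one (0.23, adjusted p = 0.0886). In the 5 libraries the median Gabra2 level was 308.1 CPM against 213.4 in the other C-titled libraries, while Gabrb2 was at 18.7 against 44.7 CPM and the pyramidal markers summed to a median of 3458 against 5121 CPM. Of the 8 pyramidal markers 4 were themselves called rhythmic in C-titled libraries, where 27% of all genes were, and their part in the Gabra2 result was not tested.

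**Figure D5:**
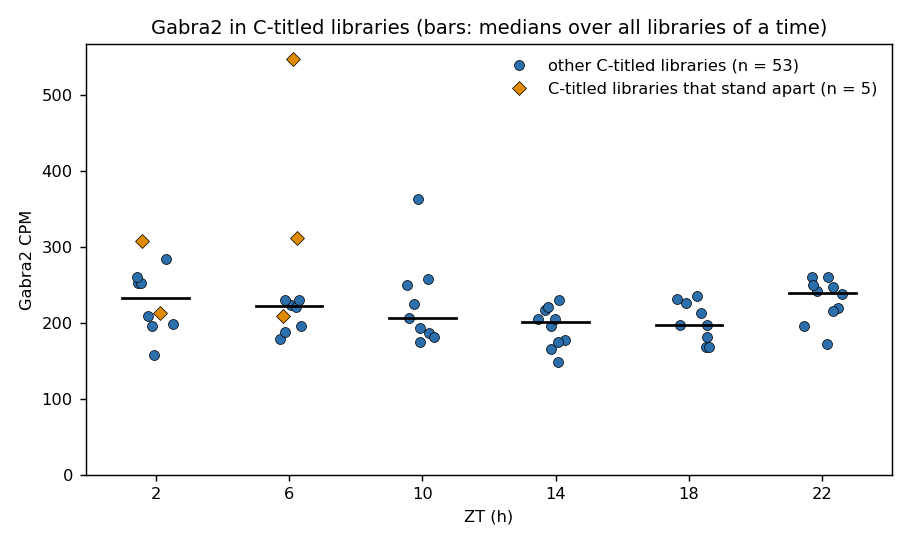
Gabra2 level (CPM) in each C-titled library by zeitgeber time; orange diamonds are the 5 libraries that stood apart, blue circles the other 53, and bars the medians over all libraries of a time. The highest library, at 547 CPM at ZT6, and the libraries at 311.3 and 308.1 CPM are orange diamonds.

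The other profiles were flatter relative to their spread. Gabra4 had an amplitude of 0.12 in both sets, with fitted peaks at ZT8.46 in the PV-titled set and ZT8.56 in the C-titled set, but neither passed after adjustment (adjusted p = 0.226 and 0.0885). Its mean among PV-titled libraries was highest at ZT6, at 141.5 ± 29.0 CPM (SD), and lowest at ZT22, at 118 ± 16.4. Among C-titled libraries it was nearly equal at ZT6, at 185.5 ± 32.3, and ZT14, at 185.3 ± 19.5. Between these it was 170.8 ± 31.9 at ZT10, and it was lowest at ZT18, at 144.8 ± 26.7. Without the libraries that stood apart the C-titled mean of Gabra4 was 185.1 at ZT6 and 185.3 at ZT14. Gabra3, Gabra5, Gabrb1 and Gabrb2 had adjusted p from 0.649 to 0.978 in PV-titled libraries and from 0.232 to 0.956 in C-titled libraries.

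Gabrd in PV-titled libraries had its lowest mean at ZT22. The libraries there ran from 42.2 through a median of 60.1 to 100 CPM, with a mean of 68.0 ± 17.3, while the means at the other 5 times lay between 79.9 and 93.4 CPM. The ZT22 libraries overlapped with those of every other time, whose lowest value was 54.3 CPM. The curve had an amplitude of 0.11 ± 0.06 (log2, SE; adjusted p = 0.542), and with time as a factor the adjusted p was 0.137, so no change over the day passed the test. In C-titled libraries the Gabrd means lay between 79.4 and 87.1 CPM.

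Between prefixes, the difference in rhythm itself was called for 0 of the 7 genes, beside 0.559% of 13053 genes (edgeR), and DESeq2 also called 0. Gabra2 had the smallest p, with 0.0108 before and 0.210 after adjustment, and it was the only 1 of the 7 under 0.05 before adjustment. Its rhythm in C-titled libraries is therefore not shown to differ from that in PV-titled libraries, where its amplitude was 0.05 ± 0.05 (log2, SE) and its means ran from 117 CPM at ZT2 to 130 CPM at ZT22. Of the gamma genes, Gabrg3 (amplitude 0.25, peak at ZT4.56, adjusted p = 0.0012) and Gabrg1 (0.22, ZT0.465, adjusted p = 0.0136) were called rhythmic in C-titled libraries, beside 27% of all genes, and neither was in PV-titled libraries. Without the 5 C-titled libraries that stood apart, the amplitude was 0.17 for Gabrg3 (adjusted p = 4.97e-04) and 0.26 for Gabrg1 (adjusted p = 9.53e-04), so both calls held there. The highest C-titled library for Gabrg3 at ZT2 was at 84.2 CPM, where the median was 29.5.

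The genes whose level followed that of Gabra2 most closely over the 58 C-titled libraries, after taking out sex and number range, were Ppp1cb (Pearson r = 0.83), a catalytic subunit of protein phosphatase 1, Gatad2b (r = 0.75), a subunit of the NuRD complex, and Tmem255a (r = 0.73). Over the 53 libraries that did not stand apart the values were 0.71, 0.68 and 0.61. These libraries share the same cells and depth for all genes, so the values are a description.

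Partner genes act in the clustering, trafficking and turnover of GABA receptors, and 22 were looked at together, the GABA-B receptor genes Gabbr1 and Gabbr2 included. Between prefixes 17 of the 22 were lower in PV-titled libraries and 3 higher, beside 43.2% and 44.3% of all genes, and the 20 called of 22 are near the 87.5% called over the table. The partner genes had a median of -0.54 (log2) beside 0.01 over all genes. The smallest p-values belonged to Gabarapl1, a relative of the receptor-binding protein GABARAP, at -0.90, to Nsf, an ATPase of membrane fusion, at -1.36, and to Ubqln1, which binds the receptors and slows their degradation, at -1.13. The groups did not overlap for Gabarapl1, and the share of all genes without overlap was not counted. The 3 higher genes were Iqsec3, a gephyrin-binding exchange factor of inhibitory synapses, Shisa7, an auxiliary subunit, and Rdx, which anchors alpha5 receptors, named after their values were seen.

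Over the day 1 of 22 partner genes was called rhythmic in PV-titled libraries, beside 3.1% of all genes, and 2 of 22 in C-titled libraries, beside 27%. Trak1, an adaptor for kinesin transport, was called in both sets. Its amplitude was 0.24 with a peak at ZT19.5 in PV-titled libraries (adjusted p = 0.00721) and 0.23 with a peak at ZT18.0 in C-titled libraries (adjusted p = 0.00147). In PV-titled libraries Shisa7 (adjusted p = 0.0603) and Dag1 (adjusted p = 0.218) came next. In C-titled libraries Gabarapl2 was called as well (amplitude 0.11, peak at ZT3.53, adjusted p = 0.0484), but not without the 5 libraries that stood apart (0.05, adjusted p = 0.506), and Trak2 (adjusted p = 0.0573) was not. The difference in rhythm between prefixes was called for 0 of 22, beside 0.559% of all genes, and the smallest adjusted p values there were 0.406 for Nlgn2, 0.443 for Gabarapl2 and 0.528 for Lhfpl4.

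None of the 7 genes differed between females and males after adjustment, beside 0.0307% of all genes called in the PV-titled set and 0.184% in the C-titled set (edgeR; DESeq2 also called 0 of 7 in each). At an unadjusted p under 0.05 there was 1 in each set. Gabrd in C-titled libraries was at 80.1 ± 9.16 CPM in females and 89.5 ± 12.7 in males (SD, n = 29 each), a difference of -0.15 ± 0.05 (log2, female minus male, SE; p = 0.0052, adjusted p = 0.337). Gabra2 in PV-titled libraries was at 128 ± 18.9 CPM in 28 female and 116 ± 22.3 in 27 male libraries, a difference of 0.15 ± 0.07 (log2, female minus male, SE; adjusted p = 0.9999). The ranges of the sexes overlapped in both cases. None of the 22 partner genes differed between the sexes after adjustment either. The smallest p-values there belonged to Trak2, Gabarapl2 and Iqsec3 in C-titled libraries and to Gphn, Dag1 and Shisa7 in PV-titled libraries, with adjusted p from 0.656 to 0.9999.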

How the data were processed

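The authors deposited 1 table of counts of reads per gene for the ribosome-bound RNA. Per the labels' protocols, an antibody to the tag pulled the ribosomes down, SMART-seq HT gave the cDNA and Nextera Flex the libraries. FastQC, HTSeq and DESeq2 and the build GRCm38 are named in the submitters' processing notes, and which versions, aligner and annotation were used is not given in the sources used here. Counts came from 113 of 114 labelled libraries, and 1 column whose sex differs from the title it would fit was not used. Within groups of prefix, time and sex, 212 pairs of libraries were compared, and the lowest chi-square per gene was 14.0. No library was thus a copy of another of its group, and libraries of different groups were not compared in this way. Of 13101 identifiers 13051 matched a symbol in GENCODE M21, which also gave positions and exon lengths. Reads assigned to no gene, 53.1% of the total on average in C-titled and 61.0% in PV-titled libraries, stayed out of every fit.

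Tests used R 4.3.3 and edgeR 4.0.16 (TMM, filterByExpr, quasi-likelihood F tests, glmTreat at 2-fold), fitted across all genes with Benjamini-Hochberg adjustment over all of them at 0.05. The prefix was fitted with time as a factor, sex and number range as terms, and rhythm as cosine and sine of 24 h within a prefix, with sex and range. The difference in rhythm was the product of prefix with cosine and sine. CPM are on TMM-scaled totals. DESeq2 1.42.0, other scalings, no filter and subsets of libraries were alternatives, and the scripts were tested on simulated data. Counts cover counting error only where reads are separate molecules, which libraries without molecular identifiers do not show.

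The members and lists were chosen with earlier results of these data known. All 7 members, Gabrg1 and Gabrg3 are named, and other subunit genes are not reported here. Also named are the 3 partner genes of smallest p in each comparison and, for a member called rhythmic, the 3 genes of most alike pattern. Marker lists covered PV interneurons, GABAergic neurons, other interneurons, pyramidal cells, astrocytes, oligodendrocytes, microglia, and endothelial and mural cells. Of the 7 other interneuron markers 6 were higher and 1 lower in PV-titled libraries, beside 44.3% and 43.2% of all genes.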

Additional observations from a re-analysis of the deposited data

Results flagged for a closer look

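Within each prefix and time, the highest or lowest library of a gene was compared with its neighbour. In 10 of 84 such sets the gap was larger than Dixon's 95% critical value, where chance gives about 1 in 20. Of these, 5 were libraries that stood apart: Gabra2 at 547 CPM, Gabra4 at 112 CPM and Gabra5 at 51.6 CPM in C-titled libraries at ZT6, Gabra5 at 55.7 CPM in C-titled libraries at ZT2, and Gabra5 at 112 CPM in PV-titled libraries at ZT10. The nearest other Gabra2 value at ZT6 was 311.3 CPM.

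The other 5 were Gabra2 at 364 CPM in C-titled libraries at ZT10, where the next highest was 258.2 CPM, Gabra5 at 83.1 CPM in PV-titled libraries at ZT14, Gabrb1 at 172.5 CPM in PV-titled libraries at ZT6, Gabrb1 at 157.8 CPM in C-titled libraries at ZT18, and Gabrd at 106 CPM in C-titled libraries at ZT22.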

How the results depend on the processing

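Each comparison was repeated under 14 to 17 alternatives, 1 of them, without the 8 libraries that stood apart, chosen after seeing the data. The count of 6 of 7 genes lower in PV-titled libraries and 0 higher was found under 15 of 16. Without TMM scaling 5 were lower and 1 higher: Gabrd was at 0.19, reversed, and Gabrb1 at -0.06, not called. The counts of 0 for rhythm in PV-titled libraries, for the difference in rhythm and for sex were the same under all their alternatives. Leaving out 1 replicate number at a time gave 6 and 6 for the prefix. Of 112 single prefix differences 110 kept their side of the threshold and, where called, their direction. A change of sign in a difference not called was not counted, such as Gabrd at 0.03 in the higher range.

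The rhythm of Gabra2 in C-titled libraries was called under 7 of 17 alternatives, among them DESeq2 (adjusted p = 0.0119), and the adjusted p over all 17 ran from 0.0119 to 0.619. The count of 1 gene became 0 without TMM scaling (adjusted p = 0.0655), without the number range as a term (0.079), in the lower range (0.318) and the higher range alone (0.0886), in females (0.619) and males alone (0.0711), with time as a factor (0.0997), and without the libraries that stood apart (0.0838). Leaving out 1 replicate number at a time, the count ran from 0 to 1, with adjusted p from 0.0189 to 0.0738, and it was 0 without replicate 1 and without replicate 5. Some of these alternatives hold fewer libraries and others hold all of them, and the cause was not tested.

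Whether the number that opens a title's second field pairs libraries is not given in the sources used here. Same-numbered libraries of other groups within a prefix and range had a median correlation of 0.171 of their deviations, against 0.0931 for other numbers. With this number as a replicate block the counts were 6 for the prefix, 0 and 1 for rhythm in PV-titled and C-titled libraries, 0 for the difference and 0 for sex, and the genes rhythmic in C-titled libraries numbered 3311 against 3518 without it. The genes whose rhythm differed between prefixes numbered 18 with the block and 73 without it.

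Added after seeing the data, the same alternatives for other genes called rhythmic in C-titled libraries kept the call in 15 of 17 for Gabrg3, 14 for Trak1, 11 for Gabrg1 and 1 for Gabarapl2, and in PV-titled libraries in 9 of 17 for Trak1.

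The lowest count in any library was 122 among the 7 genes, and 91 for Gabrg1. What counting error adds is unknown without molecular identifiers.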
